A study of Populus trichocarpa with 45 samples.

Results

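The genes described here were 100 of 34700 annotated genes whose transcripts were lower in leaves of tree 4 than in leaves of trees 13 and 14 of Populus trichocarpa, the black cottonwood, while trees 13 and 14 stood close to each other. They were chosen by measured values. A gene entered when each of its 5 branch means in tree 4 lay below all 10 branch means of trees 13 and 14, and when the means of trees 13 and 14 differed by less than 0.3 on the log2(TPM + 1) scale. TPM, a transcript abundance, is a level per transcript length relative to the summed level of all genes in the library. The first condition was met by 421 genes (1.21% of all genes) and both by 218 genes, of which the 100 with the largest difference between trees 13 and 14 and tree 4 were kept. The direction and the size of the difference between tree 4 and the other trees are thus a property of the choice, and no test is given for them.

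The samples were leaf tissue of 3 trees, all untreated, with 5 branches per tree and 3 libraries per branch. They are named by tree and branch, from 13.1 to 13.5, 14.1 to 14.5 and 4.1 to 4.5. The study left branches 13.4 and 14.1 out of its own analysis because damage prevented an age estimate, and both are used here. The text of the study presents trees 13 and 14 as stems of 1 wild individual, and tree 4 as a different tree. By contrast, the labels describe everything as grown on a single wild tree. The Results and the Methods of the study differ on whether the 3 libraries of a branch are biological or technical replicates, so spread between libraries may be technical. On either reading, tree 4 is 1 tree against 1 individual, and a difference between individuals cannot be told apart from any other difference between those trees. The reference genome was assembled from branch 14.5, and reads of all 3 trees were aligned to it. Whether tree 4 reads aligned less well at these genes was not tested.

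Branches of 1 tree share a genotype apart from mutations that arose as the tree grew. Individuals of an outcrossing species such as black cottonwood differ at many sites, in the regulation of genes and in which genes and alleles they carry. A leaf library is dominated by transcripts of photosynthesis and primary metabolism, and in a sample of whole tissue fewer cells of a type and less RNA per cell cannot be told apart. The deposited tables pair the gene identifiers with no names, and 0 of 34700 identifiers matched the reference table at hand. Genes are therefore given by identifier and position in the Stettler assembly, their functions are not stated, and the leaf label could not be checked against marker genes.

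The number of fragments behind a library, recovered from the smallest FPKM steps, lay between 11874227 and 35943636. Tree 4 was sequenced most deeply, with a median of 31276907, followed by tree 14 with 23716538 and tree 13 with 21009825. For a transcript of 1 kilobase, 1 TPM equalled some 16.2 fragments in the median library of tree 13, 18.1 in tree 14 and 23.2 in tree 4, so tree 4 had the finer resolution at low levels. Library 14.1 replicate 3 stood apart, with the fewest fragments and a scaling factor of 0.506 against 0.654 to 1.29 in the other 44 libraries. The factor is the median ratio of a library to the typical library, and TPM divided by it is called scaled TPM here. In deposited TPM this 1 library held the lowest value among trees 13 and 14 for 82 of the 100 genes, and in scaled TPM for 1 gene. Without it, 372 genes passed the rule in place of 218.

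The difference between the mean of trees 13 and 14 and the mean of tree 4 had a median of 0.90 on the log2(TPM + 1) scale over the 100 genes, from 0.59 to 4.09. It was at least 1 for 33 genes and at least 2 for 1 gene. In linear TPM the mean level in tree 4 was a median of 49.01% of that in trees 13 and 14. It was under 10% for 3 genes, between 10% and 50% for 52 and over 50% for 45, up to 65.7%. Most of the genes were therefore lower in tree 4 but still clearly expressed there. Over the 24009 expressed genes, those that reached 1 TPM in 3 or more libraries, the median difference was -0.11 in deposited TPM and -0.01 in scaled TPM. In scaled TPM the 100 genes ran from 0.65 to 4.12 with a median of 0.99, and all 100 still had every tree 4 branch below the other 10.

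**Figure D1:**
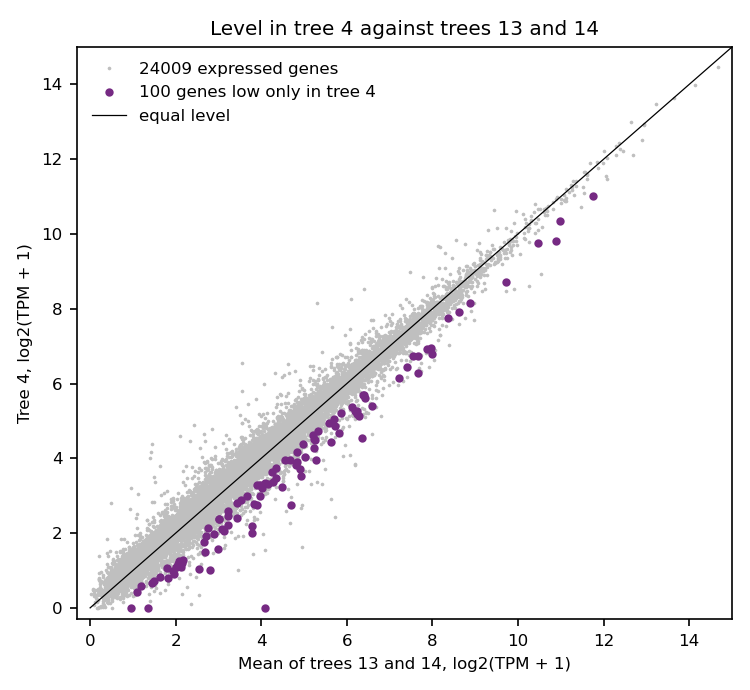
Mean level in tree 4 (vertical axis) against the mean of trees 13 and 14 (horizontal axis), both log2(TPM + 1), with grey points for 24009 expressed genes, purple points for the 100 chosen genes and a line of equal level. The purple points lie under the line over the whole range of levels, with PtStettler14.12G032700 and PtStettler14.01G281700 on the horizontal axis at 0 in tree 4.

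The gene with the largest difference was PtStettler14.12G032700, at 3399345 to 3402374 of chromosome 12 (minus strand). Its TPM had a lowest, median and highest value of 14.1, 16.2 and 21.2 over the 15 libraries of tree 13, and of 8.56, 16.6 and 21.1 over the 15 of tree 14. In tree 4 each of the 15 libraries listed it at 0. The groups did not overlap, and the branches of trees 13 and 14 were alike in level, with means of 16.5 ± 0.489 TPM and 15.97 ± 1.81 TPM (SD, n = 5 branches each).

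A second gene with a clean separation at a lower level was PtStettler14.01G281700, at 33732962 to 33736557 of chromosome 1 (minus strand). Its TPM ran from 1.13 to 2.33 over the 30 libraries of trees 13 and 14, with a mean of 1.56, and the 15 libraries of tree 4 each listed it at 0. This gene and PtStettler14.12G032700 were the 2 of all 34700 genes that were at 0 in every tree 4 library and above 0 in every other library. PtStettler14.01G281700 ranked 11th by the difference and is named because of its zeros, after its values were seen.

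Zeros were otherwise rare among the chosen genes. PtStettler14.12G032600, at 3398588 to 3399600 of chromosome 12 (minus strand), was listed at 0 in 14 tree 4 libraries and at 0.0304 TPM in the other one, 4.3 replicate 2. PtStettler14.05G104500, the shortest of the genes with a span of 150 bases, was at 0 in 3 tree 4 libraries and at up to 0.939 TPM in the others. The remaining 96 genes were above 0 in every tree 4 library, and none of the 100 had a zero in trees 13 or 14 (0 zeros). A tree 4 library thus listed 2 to 4 of the chosen genes at 0. Over all genes, 5754 to 6768 were at 0 in a library of tree 13, 5910 to 7713 in tree 14 and 5321 to 7062 in tree 4, so the 3 ranges overlapped.

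The genes ranked from 2 to 8 were at 16.8% to 27.8% of their level elsewhere without reaching 0. PtStettler14.07G014600, at 1174432 to 1176715 of chromosome 7 (minus strand), had a lowest, median and highest TPM of 60.2, 90.8 and 105.5 in tree 13, 38.2, 81.3 and 98.4 in tree 14, and 14.03, 20.4 and 31.9 in tree 4. Its highest tree 4 library lay below the lowest library of the other trees, and its mean was 3.60-fold higher outside tree 4. PtStettler14.13G005600, at 379364 to 381277 of chromosome 13 (minus strand), had 5.21, 6.64 and 8.36 TPM in tree 13, 3.42, 5.58 and 7.40 in tree 14, and 0.514, 1.06 and 1.35 in tree 4. Here too no library overlapped, with a mean 5.95-fold higher outside tree 4.

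PtStettler14.13G090500, at 11305650 to 11309087 of chromosome 13 (plus strand), had a lowest, median and highest TPM of 8.82, 12.1 and 14.9 in tree 13, 8.33, 13.9 and 15.9 in tree 14, and 1.26, 2.64 and 7.80 in tree 4. Its libraries came close without overlapping, because branch 4.1 was higher than the other tree 4 branches. The mean was 3.90-fold higher outside tree 4. PtStettler14.09G095900, a short gene of 207 bases at 9377990 to 9378196 of chromosome 9 (plus strand), had 17.8, 26.4 and 37.8 TPM in tree 13, 10.2, 25.9 and 31.5 in tree 14, and 1.73, 7.05 and 18.8 in tree 4. Its tree 4 libraries reached into the range of the other trees, although the means were 3.75-fold apart.

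PtStettler14.02G123800, at 9961562 to 9967438 of chromosome 2 (minus strand), had a lowest, median and highest TPM of 10.6, 13.6 and 17.3 in tree 13, 5.03, 12.98 and 15.8 in tree 14, and 2.33, 3.32 and 6.39 in tree 4. Only 14.1 replicate 3 lay below the highest tree 4 library, and in scaled TPM no library overlapped. PtStettler14.06G080500 on chromosome 6 had 1.74, 5.67 and 8.97 TPM in tree 13, 2.53, 5.51 and 7.28 in tree 14, and 0.405, 1.07 and 1.81 in tree 4. PtStettler14.16G111500 on chromosome 16 had 2.42, 6.99 and 8.90 TPM in tree 13, 2.39, 8.17 and 10.4 in tree 14, and 1.31, 2.16 and 2.95 in tree 4. The last 2 genes overlapped between trees in scaled TPM as well, the first through 13.1 replicate 2 in deposited TPM and the second through 13.1 replicate 3 and 14.1 replicate 3.

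**Figure D2:**
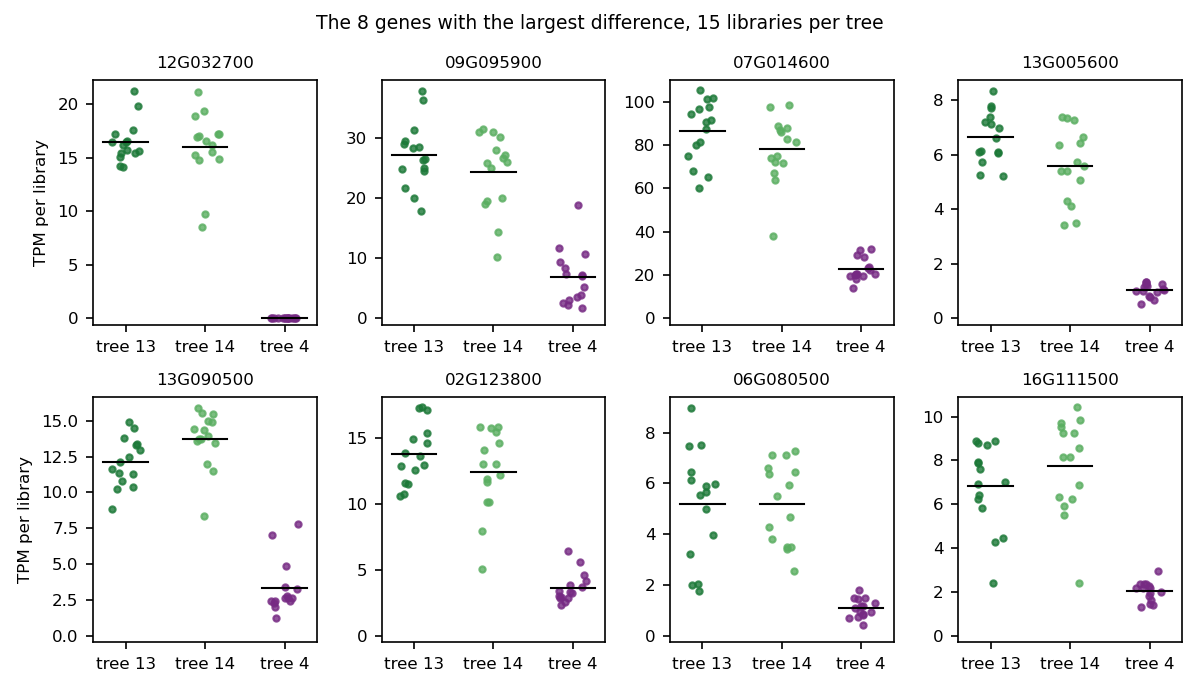
TPM as deposited (vertical axis, linear, a scale for each panel) in each library of trees 13, 14 and 4 for the 8 genes with the largest difference, with 15 points per tree and a bar at their mean. All tree 4 points of PtStettler14.12G032700 lie at 0, while those of PtStettler14.09G095900, at 1.73 to 18.8 TPM, reach into the range of the other trees.

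Seen library by library, 7 of the 100 genes had all 15 tree 4 libraries below all 30 others in deposited TPM, an arrangement found for 0.118% of all genes. These were PtStettler14.12G032700, PtStettler14.07G014600, PtStettler14.13G005600, PtStettler14.13G090500, PtStettler14.01G281700, PtStettler14.12G032600 and PtStettler14.04G122400. For the other 93 at least 1 library overlapped. In scaled TPM 65 genes did not overlap (1.05% of all genes). Since the branch means of the same libraries chose the genes, these counts describe the chosen genes and are not support for the difference. Within tree 4 the highest library in deposited TPM was 4.1 replicate 2 for 27 genes and 4.1 replicate 1 for 25. The latter had the largest scaling factor of all libraries, 1.29.

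**Figure D3:**
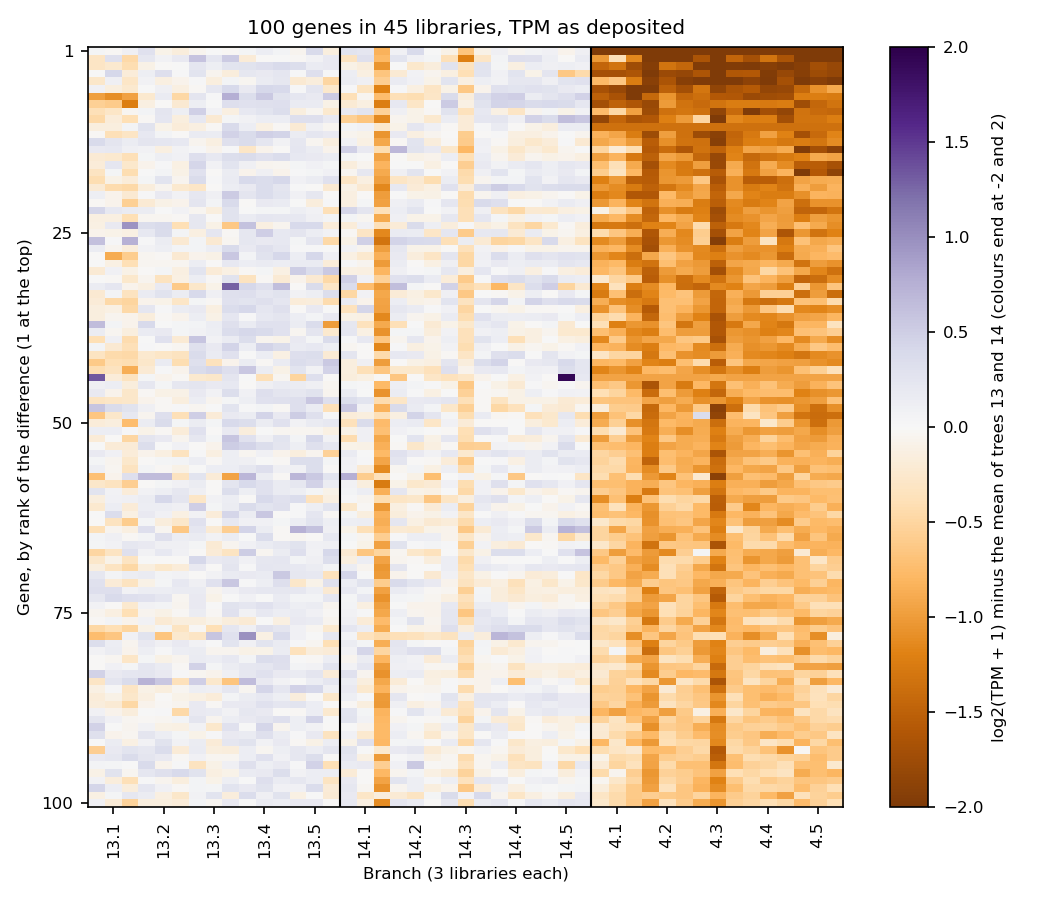
The 100 genes (rows, by rank of the difference) in 45 libraries (columns, 3 per branch), coloured by log2(TPM + 1) minus the gene's mean over trees 13 and 14, with colours ending at -2 and 2 and black lines between trees. The 15 columns of tree 4 are orange for nearly every gene, and single columns of 14.1 and 14.3 are orange within tree 14, the former being 14.1 replicate 3 with a scaling factor of 0.506.

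To read the difference in libraries that had no part in the choice, the rule was applied without the libraries of 1 replicate number, and the genes it chose were read in the 15 libraries left out. With replicate 1 left out, 99 genes passed the rule. In the unused libraries their median difference was 0.83 on the log2(TPM + 1) scale, 96 of the 99 were lower in tree 4, and for 63 the 5 tree 4 libraries lay below the other 10 (1.47% of all genes). With replicate 2 left out, the median in the unused libraries was 0.84, all 100 were lower in tree 4, by at least 0.48, and 52 did not overlap (0.548% of all genes). With replicate 3 left out, the median was 0.81, all 100 were lower, by at least 0.28, and 21 did not overlap (0.323% of all genes). The share of all genes lower in tree 4 in the unused libraries was not worked out. The counts of lower genes thus have no background to be read against. The shares without overlap are over all annotated genes, including those at 0. The unused libraries came from the same branches, so these values speak of further libraries of those branches and not of further trees. If the 3 libraries of a branch are technical replicates, as the Methods of the study say, the unused ones measured the same leaf sample again. Their shared direction is then no independent support for the difference.

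The list ended in a dense part of the ranking. The last 3 genes kept were PtStettler14.06G180200, PtStettler14.07G132800 and PtStettler14.01G277300, with differences of 0.592, 0.590 and 0.588. The first 3 left out were PtStettler14.11G091400, PtStettler14.01G003900 and PtStettler14.05G037900, with 0.586, 0.582 and 0.581 on the same log2(TPM + 1) scale. Scaling the libraries moved that edge. With scaled TPM 1168 genes passed the rule, and its first 100 shared 58 with the list described here. Of the 100 genes, 97 still met the rule in scaled TPM, and PtStettler14.08G106000, PtStettler14.06G100500 and PtStettler14.12G045400 exceeded the limit for trees 13 and 14, with tree 14 minus tree 13 at 0.35, 0.30 and 0.32.

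Trees 13 and 14 were held close by the rule, and what difference remained followed the scaling. In deposited TPM tree 14 minus tree 13 had a median of -0.14 over the 100 genes, beside -0.11 over all expressed genes, and 79 of the 100 were higher in tree 13. In scaled TPM the median was -0.02 over the 100 genes and -0.00 over all expressed genes, and 57 were higher in tree 13.

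The chosen genes were expressed at higher levels than most. In trees 13 and 14 their mean TPM ran from 1.08 to 3532, with quartiles of 7.17, 19.5 and 70.4, while expressed genes had a median of 7.76. At least 10 TPM was reached by 66 of the 100 genes and by 43.6% of expressed genes, and at least 100 TPM by 16 of the 100 and by 6.31% of expressed genes. In tree 4 the quartiles of the 100 genes were 3.24, 9.998 and 35.2 TPM, with a maximum of 2104, and the median of expressed genes was 8.51. The rule ranks differences of log2(TPM + 1), which understates changes of weakly expressed genes, so a level above the usual one is partly built into the choice.

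The 4 most abundant of the genes kept high levels in tree 4. PtStettler14.10G179000, at 19351877 to 19355172 of chromosome 10 (plus strand), had a lowest, median and highest TPM of 2495, 3525 and 4110 in tree 13, 1691, 3833 and 4092 in tree 14, and 1392, 2118 and 2664 in tree 4. The libraries overlapped, and the mean was 1.68-fold higher outside tree 4. PtStettler14.04G139900, at 17767038 to 17769714 of chromosome 4 (plus strand), had 1422, 1949 and 2266 TPM in tree 13, 1014, 1939 and 2206 in tree 14, and 583.4, 905.7 and 1086 in tree 4. It showed the widest gap of the 4, with a mean 2.12-fold higher outside tree 4 and overlap through 14.1 replicate 3 alone. PtStettler14.02G195000 on chromosome 2 averaged 2071 TPM in tree 13, 2014 in tree 14 and 1308 in tree 4. PtStettler14.09G109100 on chromosome 9 averaged 1444 TPM in tree 13, 1430 in tree 14 and 877.8 in tree 4. In tree 4 they were at 64.1% and 61.1% of their level elsewhere, above the median of the list.

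The span of a gene, from its annotated start to its end with introns included, had a median of 2116 bases over the 100 genes, with quartiles of 1217 and 3788. The median was 2914 bases over all annotated genes and 3478 over expressed genes, so the chosen genes were shorter than both. Spans under 1000 bases were found for 19 of the 100 genes, for 14.1% of all genes and for 8.91% of expressed genes. The shortest were PtStettler14.05G104500 with 150 bases and PtStettler14.13G052700 with 183. The former averaged 1.28 TPM in tree 13, 1.19 in tree 14 and 0.358 in tree 4, and at such lengths 1 TPM stands for few fragments. PtStettler14.13G052700, at 4179335 to 4179517 of chromosome 13 (minus strand), was abundant in spite of its length, at 232.8 TPM in tree 13, 245.2 in tree 14 and 121.7 in tree 4.

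The longest were PtStettler14.06G180200, which spans 12756 bases on chromosome 6, and PtStettler14.01G183200, which spans 9919 bases on chromosome 1. The first averaged 33.2 TPM in tree 13, 28.4 in tree 14 and 20.03 in tree 4, and the second 63.6, 52.3 and 36.4. In both the libraries of tree 4 overlapped with those of the other trees. The plus strand held 56 of the 100 genes and 49.9% of all genes. An annotated gene on the same bases was present for 13 of the 100 (8.39% of all genes) and on the other strand for 8 (5.13% of all genes). The libraries were made with a stranded kit, and whether the estimates of expression used the strand was not tested.

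The genes were scattered over the genome. Of 19 chromosomes, 18 held at least 1 of the 100 genes. Chromosomes 2 and 6 held 11 each, with 6.82% and 7.15% of all genes, and chromosome 1 held 10, with 11.7% of all genes. Chromosome 19, which holds 3.38% of all genes, had 0 of its 1172 genes in the list. For the middle gene of the list, the nearest other member lay 108 genes or 1028934 bases away.

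In gene order, 91 of the 100 genes had no member next to them. The other 9 formed 4 groups of adjacent genes, while 0.568% of all genes stood next to a member. Widening the window to 5 genes on either side raised the 9 to 11 genes, and a window of 100 kb held 16. With the list rebuilt from scaled TPM, 15 genes had an adjacent member. The matching shares over all genes were not worked out for the wider windows or for that list. Those counts thus have no background, and a wider window takes in more genes by itself.

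The largest group was a run of 3 genes on the minus strand of chromosome 17, PtStettler14.17G089700, PtStettler14.17G089800 and PtStettler14.17G089900, from 12180647 to 12187939 with 2950 and 2034 bases between them. They averaged 8.09, 5.84 and 3.56 TPM in tree 13, 7.23, 5.07 and 2.93 in tree 14, and 3.37, 2.46 and 1.27 in tree 4. Tree 4 was at 43.95%, 45.02% and 39.18% of the level of the other trees, and the order of the genes by level was the same in each tree. PtStettler14.17G089800 and PtStettler14.17G089900 both span 787 bases. Whether they are copies of each other, so that reads could be shared between them, was not examined, and their separate levels are uncertain in that respect.

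On chromosome 12, PtStettler14.12G032600 and PtStettler14.12G032700 overlap by 256 bases on the minus strand, and these are the genes listed at 0 in 14 and 15 tree 4 libraries. PtStettler14.12G032600 was much the weaker, with a lowest, median and highest TPM of 0.354, 0.873 and 3.87 in tree 13 and 0.228, 0.844 and 6.30 in tree 14. Reads in the overlap can be given to either gene, so the lower level of PtStettler14.12G032600 is uncertain. The pair covers 3787 bases, and 0.0304 TPM in 1 library was the highest value that tree 4 had for either gene.

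The remaining groups were pairs on opposite strands. PtStettler14.06G036500 and PtStettler14.06G036600 converge on chromosome 6 from 2994002 to 2998187, with 2571 bases between them. The first averaged 95.6 TPM in tree 13, 98.2 in tree 14 and 43.6 in tree 4, and the second 55.5, 56.6 and 25.04. PtStettler14.04G127800 and PtStettler14.04G127900 converge on chromosome 4 with 165 bases between them. The first, of 204 bases, averaged 260.3 TPM in tree 13, 249.6 in tree 14 and 113.9 in tree 4, and the second, of 7518 bases, 6.44, 6.45 and 3.03. In both pairs the partners were at less than 50% of their level elsewhere, although the levels within the second pair were far apart.

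Genes beside the members were not part of the choice by their own values and could be tested. Tree 4 was compared with the mean of trees 13 and 14 on the 15 branch means of log2(scaled TPM + 1), using limma with Benjamini-Hochberg adjustment over 24009 genes. The unit was the branch, so these p-values say nothing of the spread between individuals. Of the 188 nearest flanking genes, at a median gap of 4584 bases, 139 were expressed enough to be tested. Lower calls in tree 4 were made for 45 of them, or 32.4%, against 18.7% of all genes tested. Higher calls were made for 13, or 9.35%, against 17.7% of all genes tested, and 81 were not called. Their median change was -0.06, against 0.01 over all genes tested.

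Among the next 4 genes on either side 22.9% were called lower and 16.1% higher. On the side of higher positions the adjacent gene was called lower in 32 of 78 cases, or 41.0%, and on the other side in 14 of 62, or 22.6%. Further out on that other side, from the second gene on, the share was 23.5% to 24.4%, so it did not fall with distance there. The difference between the sides was not tested. By the strand of the member, a comparison added after seeing the data, 26 of 72 upstream genes (36.1%) and 20 of 68 downstream genes (29.4%) were lower. Most of these changes were small. A call lower by at least 1 log2 unit was made for 4 of the 139, or 2.88%, against 0.966% of all genes. Of these 4, PtStettler14.08G159200 and PtStettler14.14G000200, named after their values were seen, overlap their member on the same strand by 156 and 3664 bases, so reads can be given to either gene. In all, 9 of the 139 overlap a member. Without them 42 of 130 (32.3%) were called lower and 12 (9.23%) higher, and 2 were lower by at least 1 log2 unit, a comparison added after seeing the data. In TPM as deposited, 18.7% of flanking genes and 7.17% of all genes were called lower. Whether a member and its neighbour share sequence, reads or control was not tested.

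**Figure D4:**
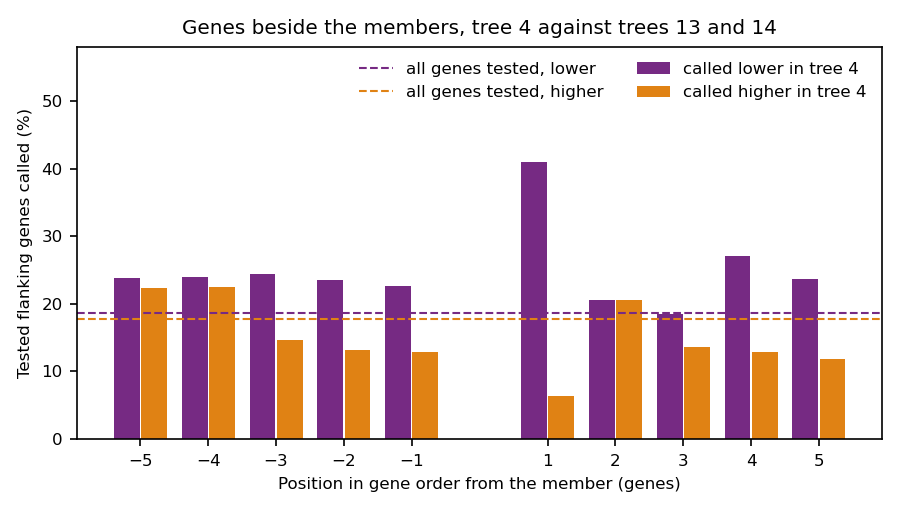
Share of tested flanking genes (vertical axis, percent) called lower (purple) or higher (orange) in tree 4 by position in gene order from the member (horizontal axis, genes, positive towards higher positions), with dashed lines for all genes tested. The adjacent gene on the right side stands out with 41.0% called lower, and the adjacent gene on the left, at 22.6%, lies close to the line at 18.7%.

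A few flanking genes changed as much as the members. PtStettler14.13G005700, at 385617 to 387325 of chromosome 13 (minus strand), lies 4339 bases from PtStettler14.13G005600. Its TPM averaged 7.51 in tree 13, 3.34 in tree 14 and 0.289 in tree 4, which gave a log2 change of -2.24 ± 0.157 (SE) in tree 4 at a limma adjusted p of 7.77e-08. It stayed off the list because trees 13 and 14 differed by more than the limit. PtStettler14.04G124000, at 16137374 to 16138859 of chromosome 4 (minus strand), stands beside the member PtStettler14.04G123900. It averaged 5.61 TPM in tree 13, 3.47 in tree 14 and 0.0795 in tree 4, a log2 change of -2.28 ± 0.215 (SE) at a limma adjusted p of 1.43e-06, and it too was over the limit between trees 13 and 14.

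The largest change in the other direction lay beside the gene that was listed at 0. PtStettler14.12G032800, at 3415808 to 3417695 of chromosome 12 (plus strand), is 13433 bases from PtStettler14.12G032700. Its TPM ran from 6.50 to 14.3 in tree 13, from 6.81 to 15.6 in tree 14 and from 22.7 to 46.9 in tree 4. No library overlapped, and the gene rose by 1.54 ± 0.123 (SE) on the log2 scale at a limma adjusted p of 2.68e-07. PtStettler14.13G052600, on chromosome 13 beside PtStettler14.13G052700, averaged 24.4 TPM in tree 13, 35.8 in tree 14 and 65.0 in tree 4, a log2 change of 0.94 ± 0.185 (SE) at a limma adjusted p of 0.00114. Its libraries overlapped between trees 14 and 4.

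Differences among the branches of 1 tree were not used to rank the genes and were tested in each tree by limma's moderated F of 5 branches on log2(scaled TPM + 1), at an adjusted p of at most 0.05 over all genes tested. The library was the unit, so these p-values measure spread between libraries of a branch. In tree 13, 45 of the 100 genes were called, against 13.5% of all genes tested. In tree 14, 29 of the 100 were called, against 21.0%. In tree 4, 37 of the 93 that passed the filter on low values were called, against 24.0%. The rule kept every tree 4 branch below all others, which bounds the spread within each tree. Over the 3 trees, 34 genes were called in none, 31 in 1, 25 in 2 and 10 in all. Genes that missed the filter in tree 4 were counted as not called there. The matching shares over all genes were not worked out, so these counts have no background to be read against. The counts depended on the scaling, since TPM as deposited gave 22, 3 and 9 calls, against 11.6%, 3.13% and 5.62% of all genes tested. The 3 calls in tree 14 were thus at the general share. Without 13.1 replicate 3, tree 13 gave 26 calls, against 8.80%. Among genes with a mean of at least 5 TPM in the tree, 41 of 83 were called in tree 13, against 16.4% of all such genes. In tree 14, 26 of 83 were called, against 26.8%, which is closer to the general share.

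In tree 13 the genes shared their lowest branch more than their highest. In scaled TPM branch 13.1 was the lowest of the tree for 73 of the 100 genes, where 29.0% of expressed genes had their lowest branch there, and branch 13.3 was the highest for 57, against 24.5%. The median deviation from the tree mean was -0.24 in branch 13.1 and 0.17 in branch 13.3 on the log2(scaled TPM + 1) scale. Expressed genes had a median of about 0 in every branch, which the scaling itself brings about. In TPM as deposited, a comparison added after seeing the data, 13.1 was again the lowest most often, for 59 genes against 13.9% of expressed genes. The highest branch changed to 13.4, for 52 genes against 27.5%, with 13.3 the highest for 16. On that scale the median deviation of the 100 genes was -0.15 in 13.1 and 0.05 in 13.3, against 0.08 and -0.10 for expressed genes. PtStettler14.16G061500, at 5064947 to 5067619 of chromosome 16 (plus strand), had 40.1 ± 2.69 TPM in 13.1, 51.6 ± 1.31 in 13.2, 59.6 ± 3.08 in 13.3, 61.9 ± 1.80 in 13.4 and 55.1 ± 1.04 in 13.5 (SD, n = 3 libraries, limma adjusted p = 0.000284). Here and for the single genes that follow, means and SD are TPM as deposited, while the test used scaled TPM. The order of 13.3 and 13.4 may therefore differ on the scale tested. PtStettler14.04G122400, at 15895975 to 15898877 of chromosome 4 (plus strand), had the largest F of the list in tree 13. It was lowest in 13.1, at 2.28 ± 0.0510 TPM, and highest in 13.5, at 4.33 ± 0.517 (SD, n = 3 libraries, limma adjusted p = 0.000281).

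In tree 14 the genes were less alike. The median deviation ran from -0.09 in 14.1 to 0.07 in 14.4, with 14.1 the lowest branch for 35 genes, against 26.1% of expressed genes, and 14.2 for 29, against 15.7%. In TPM as deposited 14.1 was the lowest for 73 genes, against 49.5%. PtStettler14.06G056000, at 4658829 to 4660490 of chromosome 6 (plus strand), had 118.1 ± 24.2 TPM in 14.1, 184.1 ± 13.01 in 14.2, 211.7 ± 31.8 in 14.3, 243.9 ± 31.2 in 14.4 and 289.2 ± 28.0 in 14.5 (SD, n = 3 libraries, limma adjusted p = 0.000260). Branches 14.1 and 14.3 hold libraries with scaling factors of 0.506 and 0.708, which lower their TPM as deposited. PtStettler14.02G123800 was lowest in 14.1, at 9.39 ± 4.05 TPM, and highest in 14.4, at 15.7 ± 0.203 (SD, n = 3 libraries, limma adjusted p = 0.000215). Its SD in 14.1 holds the library with the scaling factor of 0.506, which the test corrected for and the TPM values do not.

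In tree 4 the 2 genes with the largest F were both highest in branch 4.1. PtStettler14.08G174000, at 13348324 to 13350395 of chromosome 8 (minus strand), had 5.80 ± 1.34 TPM in 4.1 and 2.30 ± 0.201 in 4.5 (SD, n = 3 libraries, limma adjusted p = 9.44e-06), beside a mean of 8.28 in tree 13 and 7.53 in tree 14. PtStettler14.10G062100, at 10047855 to 10049170 of chromosome 10 (plus strand), had 4.04 ± 0.590 TPM in 4.1 and 0.789 ± 0.176 in 4.5 (SD, n = 3 libraries, limma adjusted p = 4.83e-05), beside 5.62 in tree 13 and 5.54 in tree 14. In deposited TPM both genes were thus nearer to their level in the other trees in branch 4.1. The libraries of 4.1 had scaling factors of 1.29, 1.13 and 0.998, which the test corrected for and these TPM values do not. Of the 98 genes that varied in tree 4, 40 were highest in 4.1, against 24.5% of expressed genes. The lowest branch was 4.4 for 41 genes, against 20.01%, and 4.5 for 37, against 27.5%. In TPM as deposited 4.1 was the highest for 51, against 22.8%, and 4.3 the lowest for 55, against 47.4%. In scaled TPM the median deviations stayed between -0.09 and 0.06.

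**Figure D5:**
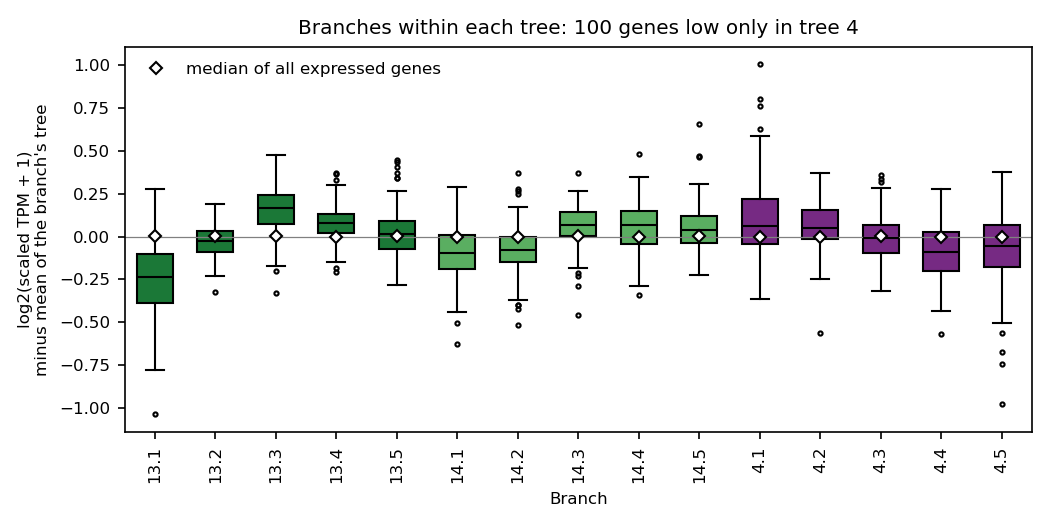
Deviation of each branch from the mean of its own tree (vertical axis, log2(scaled TPM + 1)) for the 100 genes, as a box per branch with the median, the quartiles and single genes beyond the whiskers, and a white diamond for the median of all expressed genes. The box of 13.1 is centred at -0.24 and that of 13.3 at 0.17. The diamonds lie at about 0 throughout, which the scaling itself brings about.

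Some of the genes also varied together from library to library. After each gene was centred on its mean within each tree, 83 of the 4950 pairs of the 100 genes had a Pearson correlation over 0.8 across the 45 libraries, or 1.68%, against 0.209% of all pairs of expressed genes. The median correlation was 0.23 against -0.003. The closest pairs joined genes on different chromosomes, with r = 0.93 for PtStettler14.10G179000 and PtStettler14.02G195000, 0.92 for PtStettler14.09G045200 and PtStettler14.10G179000, and 0.91 for PtStettler14.07G014600 and PtStettler14.04G139900. These are descriptions in scaled TPM. The points share branches and libraries, and whether the level of the genes had a part in the correlations was not tested. Within a branch the genes were no more reproducible than others, with a median SD between libraries of 0.15 on the log2(scaled TPM + 1) scale against 0.14 for expressed genes.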

How the data were processed

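Leaf RNA of 15 branches was sequenced from stranded mRNA libraries, 3 per branch. The authors' processing notes name Trimmomatic 0.36, HISAT2 2.1.0 and StringTie 1.3.4d, and the study aligned reads to the Stettler genome. For each library a table was deposited that gives the coordinates, FPKM and TPM of 34700 genes. The deposited FPKM values served only to recover depth, from the step that 1 fragment makes in genes of 1 exon. Read counts were not used here.

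The rule was applied to log2(TPM + 1) averaged over the 3 libraries of a branch. The members, the lists and the tests were chosen with earlier results of these data known. Scaled TPM is TPM divided by median-of-ratios factors over 25014 genes above 0 in every library. Tests used log2(scaled TPM + 1) of genes that reached 1 TPM in 3 or more libraries of a fit, and limma 3.58.1 (R 4.3.3) with a trend and Benjamini-Hochberg adjustment at 0.05. The fits were run on simulated data with independent noise, in which 200 genes changed by 1 log2 unit. They recovered 88.5% to 98% of these and called 6 to 21 unchanged genes. The noise held no shift shared by the genes of a library, so the simulation says nothing of such shifts. Other steps used Python 3.11.15, numpy 2.4.6, pandas 2.3.3 and matplotlib 3.10.9.

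The genes named were those ranked from 1 to 8, the 3 on either side of the end of the list, the most abundant, the longest and shortest, the adjacent groups, and the 2 with the largest F in each tree or, beside members, the largest change in each direction. Others were named after their values were seen. No sequence was used here, and 0 pairs of libraries held identical values.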

Additional observations from a re-analysis of the deposited data

Results flagged for a closer look

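Branch means of the named genes were searched for 1 branch far from the other 4 of its tree. This was seen in 8 of 113 groups of 5 branches, where chance gives about 1 in 20. PtStettler14.13G090500 was high in branch 4.1, at 6.56 TPM against 2.88 in the next branch, with 7.05, 7.80 and 4.84 in its libraries. PtStettler14.04G127900 was high in the same branch, at 4.50 TPM against 2.73, with 4.54, 5.37 and 3.60. PtStettler14.01G183200 was high in 14.2, at 59.4 TPM against 51.5, with 62.5, 63.9 and 51.9. PtStettler14.17G089800 was low in 13.1, at 4.05 TPM against 6.02, with 4.62, 4.72 and 2.81. PtStettler14.06G036600 was low in 14.1, at 45.1 TPM against 59.1, where replicate 3, the library of lowest scaling factor, held 28.0 and the others 50.4 and 56.9.

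PtStettler14.12G032600 was flagged in all 3 trees, each time through 1 library. Branch 13.1 had 1.70 TPM against 0.902 in the next branch, with 3.87, 0.711 and 0.522 in its libraries. Branch 14.5 had 2.80 TPM against 0.914, with 0.907, 6.30 and 1.20. Branch 4.3 had 0.0101 TPM against 0, with 0.0304 in 1 library and 0 in the other 2. Every other branch of tree 4 was at 0, so any value above 0 would have been flagged there. That flag is therefore no sign of a difference between branches. The overlap of this gene with PtStettler14.12G032700 was not tested for a part in these values.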

How the results depend on the processing

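Of 1158 alternative values, 1098 stayed near the value reported, 60 moved and 0 reversed. Only the 868 differences of named members could reverse, and the rule had set their direction. For counts and shares the limit of near was wide. With 5 TPM added before the logarithm 290 genes passed the rule, which was taken as near 218. The number of genes passing the rule, 218, was 1168 with scaled TPM, 328 with a limit of 0.5 between trees 13 and 14, 99 without replicate 1, 134 without replicate 2, 362 without branch 14.1, 344 without branch 4.1 and 372 without 14.1 replicate 3, the last chosen after seeing the data. With libraries or branches left out it ran from 99 to 372. The list shared 58 genes with that from scaled TPM, 66 with a limit of 0.2, 54 with a limit of 0.5, 50 when cut to 50 genes, and 62 to 96 with samples left out. The median difference was 0.59 for 200 genes and 0.74 to 1.002 with samples left out. Genes called between branches of trees 13, 14 and 4 numbered 45, 29 and 37. TPM as deposited gave 22, 3 and 9. An adjusted p of at most 0.01 gave 18 and 19 in trees 13 and 14, against 6.21% and 10.4% of all genes tested. Leaving out libraries gave 26 to 46, 23 to 37 and 33 to 47. The share of all genes tested moved too. In tree 13 it was 8.80% beside 26 calls and 12.8% beside 46, and in tree 14 it was 25.3% beside 37. The shares beside 23 in tree 14 and beside 33 and 47 in tree 4 are not given. Those 3 counts therefore have no background to be read against. Under a replicate block the genes called numbered 38, 30 and 51, against 11.4%, 18.1% and 28.8% of all genes tested. The deviations of same-numbered libraries had median correlations of -0.02, 0.01 and 0.10, against -0.00, -0.01 and -0.06 for different numbers, and exceeded 0.1 in 10, 10 and 14 of 30 pairs. With no pairing in the labels and not every pair over 0.1, the numbers were not taken to pair samples, although tree 4 leaned that way. Flanking genes called lower were 18.7% with TPM as deposited, 2.88% with at least 1 log2 unit and 28.8% to 34.5% with samples left out. Those called higher were 16.1% for the next 4 genes on either side, 0.719% with at least 1 log2 unit and 7.91% to 11.5% with samples left out. Where the cause is not in the setting itself, the cause was not tested. Depth limits levels far below 1 TPM, and 1 tree per side limits what the difference says of individuals.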
